A study of Caenorhabditis elegans with 12 samples.

Results

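The vacuolar H+-ATPase (V-ATPase) pumps protons across membranes. Its peripheral V1 part splits ATP, and this turns a ring of c-type proteolipid subunits in the membrane-bound V0 part against the a subunit, which holds the paths the protons take. In Caenorhabditis elegans the c ring is encoded by vha-1, vha-2, vha-3 and vha-4. The a subunit comes from vha-5, vha-6, vha-7 and unc-32, which are known to differ in tissue: vha-5 acts in the excretory canal and epidermis, vha-6 on the apical membrane of the intestine, vha-7 in the epidermis and uterus, and unc-32 in neurons, among other cells. Y-box proteins are a family that binds RNA through a cold-shock domain. Described here is the share of each of these 8 mRNAs in RNA that came down with 3 tagged Y-box proteins. Such shares do not give absolute amounts. The 8 genes were taken by subunit class from the 20182 genes of the count table. They were also selected on their measured counts in these 12 libraries, whose FLAG over MYC fold changes were already known, so their values are given as a description. No p is given for them, and how many of them edgeR called stands only beside the share of all genes called, with nothing read from it. No threshold on a value was part of the choice. All 8 were in the table and passed the filter on low counts.

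Whole young adult worms of 3 transgenic strains were used. The CEY1 strain (rrrSi300) expressed FLAG-tagged CEY-1 from the cey-1 promoter, and the CEY2 strain (rrrSi233) FLAG-tagged CEY-2 from the cey-2 promoter. The CEY4 strain (rrrSi307) expressed FLAG-tagged CEY-4 from the dpy-30 promoter rather than its own. Each transgene kept the 3'-UTR of its own cey gene and carried, behind an operon linker, PEST:GFPH2B with the tbb-2 3'UTR, and unc-119(+), on chromosome I. The labels name no other allele. As background, cey-2 is known as a germline gene, while cey-1 and cey-4 are expressed broadly. RNA from immunoprecipitations (IPs) with a FLAG antibody was compared with RNA from MYC control IPs of the same strain, with 2 libraries in each of the 6 groups and 12 in all. No statement in the labels says that replicates were separate cultures, so every SD, SE and p-value reflects no more than how these libraries differ, which may be technical. In RNA from whole worms, fewer cells of a type and less RNA per cell cannot be told apart. The tagged protein and its promoter changed together between strains, so their parts in a difference between strains cannot be told apart either.

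Total counts ran from 22915137 to 33529549 in the 6 FLAG libraries and from 3353523 to 12802412 in the 6 MYC libraries. Levels are CPM, a gene's counts divided by the library's total and put on a common scale of reads, after adjustment of that total with TMM factors (trimmed mean of M values). Log2 fold changes come from edgeR's fit over all genes. Their standard error (SE) is derived from it, as the size of the change divided by the square root of its F statistic. A gene is called where its p, adjusted by Benjamini and Hochberg's method, is under 0.05. The TMM factors differed widely, at 0.548 to 0.640 for FLAG and 1.51 to 2.13 for MYC libraries. Scaling by total counts instead moved the median FLAG over MYC change of all genes by −1.49 in CEY1, −1.71 in CEY2 and −1.41 in CEY4. A sign near 0 is therefore a matter of scale, and 3 aids are given for some of the values. They include the total-count value and the share of the 15194 tested genes with a smaller log2 fold change. Ratios of 2 genes within one library, which no scaling alters, are the other aid. The level of such a ratio also depends on transcript length, so only its difference between IPs or strains is read. CPM levels, the order of groups by level, and the sums and calls of marker genes are all on the TMM scale and can differ by total counts. The markers of whole worms were present: all 7 listed genes each of intestine, hypodermis, excretory canal, neurons, germline with oocytes, and body wall muscle were counted in every group. Of 7 sperm markers 5 passed the filter on low counts, and msp-10 or ssp-9 stood at 0 in each group.

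All 4 c-ring mRNAs were lower in the FLAG than in the MYC IP of CEY1, by 3.14-fold to 5.25-fold. Total-count scaling, which moved FLAG over MYC values down, could not turn this sign. With CEY2 and CEY4 the c-ring mRNAs were closer to their controls. Their median log2 fold change was −2.19 in CEY1, −0.30 in CEY2 and −0.79 in CEY4, against −0.26, −0.41 and −0.35 over all genes tested. With total-count scaling these c-ring medians were −3.68, −2.02 and −2.21. In CEY1, 22.5% of the tested genes had a smaller log2 fold change than vha-1, 15.3% than vha-2, 14.9% than vha-3 and 12.7% than vha-4.

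vha-1, which encodes a c-type proteolipid, was lower in the FLAG IP of every strain. In CEY1 it stood at 22.3 and 21.2 CPM in FLAG libraries, against 64.1 and 72.2 CPM in MYC libraries (log2 fold change −1.65 ± 0.10). CEY2 gave 41.4 and 44.5 CPM in FLAG libraries and 55.7 and 50.3 CPM in MYC libraries (−0.30 ± 0.09). CEY4 gave 34.2 and 33.9 CPM in FLAG libraries and 61.0 and 58.5 CPM in MYC libraries (−0.81 ± 0.09). Every FLAG library lay below every MYC library, and among the FLAG groups the order from high to low was CEY2, CEY4, CEY1 without overlap. The CEY2 value was −0.20 when CEY2 MYC replicate 1 was left out and −0.64 with relative log expression (RLE) size factors.

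vha-2 lies next to vha-1 on chromosome III, and both are known to form an operon. The vha-2 mRNA stood at 25.5 and 24.2 CPM in CEY1 FLAG libraries, against 108 and 116 CPM in CEY1 MYC libraries (−2.17 ± 0.09). It stood at 33.8 and 33.2 CPM in CEY2 FLAG libraries, against 59.0 and 62.0 CPM in CEY2 MYC libraries (−0.85 ± 0.09), and at 54.1 and 53.5 CPM in CEY4 FLAG libraries, against 93.9 and 89.4 CPM in CEY4 MYC libraries (−0.77 ± 0.07). Again all FLAG libraries were below all MYC libraries, here with CEY4 highest and CEY1 lowest among the FLAG groups.

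vha-3 is known to encode the same protein as vha-2 from another chromosome, downstream of vha-11, its neighbour in the annotation. How reads shared by such copies were counted is not given in the sources used here, so the split between vha-2 and vha-3 is uncertain. vha-3 had 10.2 and 11.7 CPM in CEY1 FLAG libraries, against 48.0 and 52.4 CPM in CEY1 MYC libraries (−2.21 ± 0.12). It had 67.8 and 62.9 CPM in CEY2 FLAG libraries and 86.4 and 73.0 CPM in CEY2 MYC libraries (−0.29 ± 0.09). It had 50.8 and 54.2 CPM in CEY4 FLAG libraries and 44.7 and 40.7 CPM in CEY4 MYC libraries (0.30 ± 0.09, but −1.12 with total-count scaling). The CEY1 FLAG libraries thus stood far below the other 10, the CEY2 libraries above the rest, and the CEY4 FLAG libraries overlapped the CEY1 MYC libraries. Without CEY2 MYC replicate 1 the CEY2 value was −0.13, and with RLE size factors −0.63.

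vha-4 encodes the larger c″-type proteolipid of the ring. Its mRNA stood at 19.3 and 15.9 CPM in CEY1 FLAG libraries, against 89.0 and 96.8 CPM in CEY1 MYC libraries (−2.39 ± 0.10). CEY4 had 41.3 and 43.1 CPM in FLAG libraries and 82.0 and 78.9 CPM in MYC libraries (−0.93 ± 0.09). In CEY2 the FLAG libraries held 35.5 and 38.8 CPM and the MYC libraries 24.6 and 30.2 CPM (0.44 ± 0.11, 0.10 with RLE size factors, but −1.29 with total-count scaling). The CEY2 FLAG level lay just under the CEY4 FLAG level, whereas the CEY2 control was the lowest of the 3 controls. In the MYC IPs the log2 difference of CEY2 over CEY4 for vha-4 was −1.56, and −1.07 with total-count scaling.

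**Figure D1:**
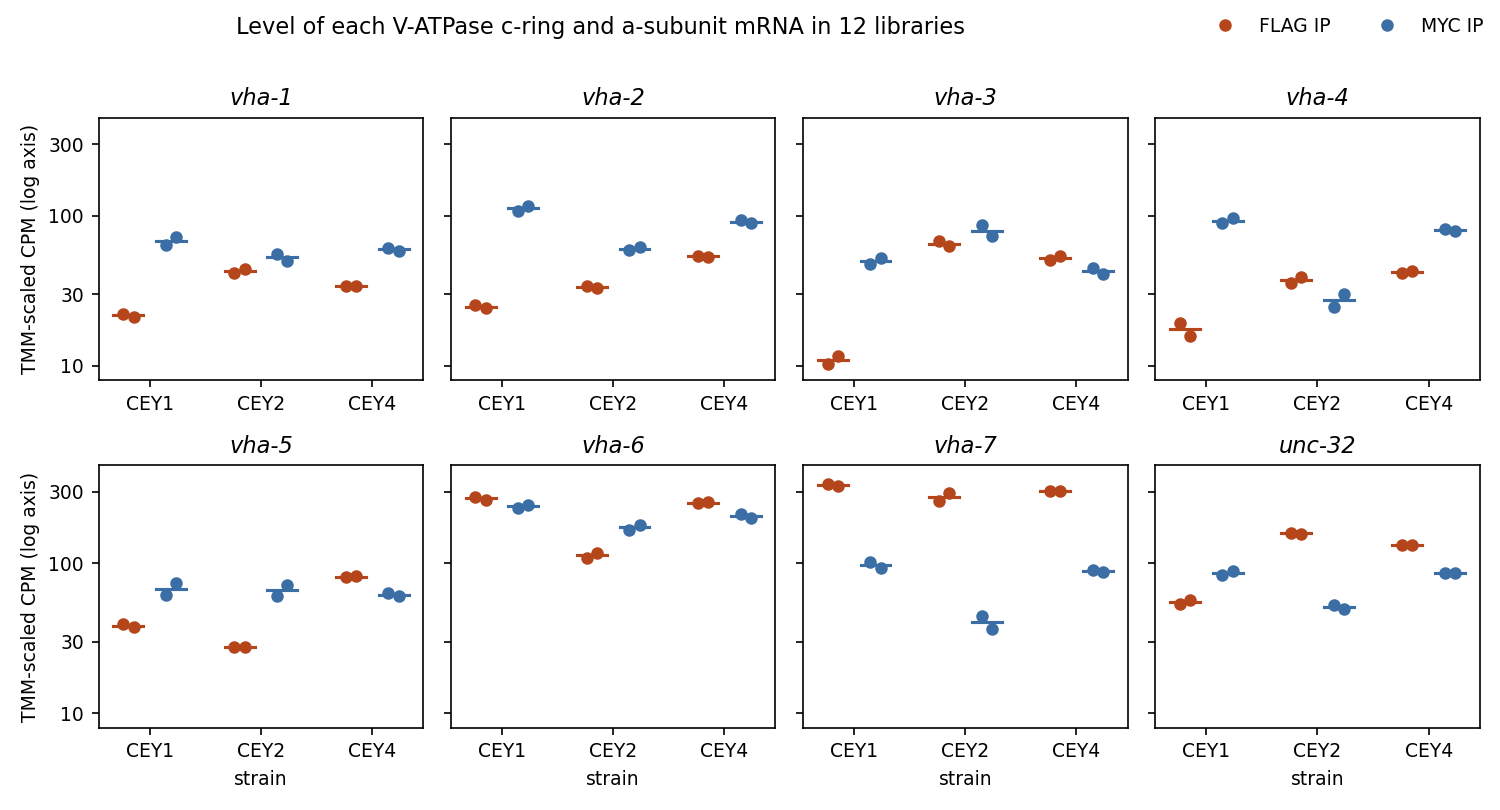
TMM-scaled CPM on a log axis of the 8 mRNAs in each strain; points are the 2 libraries of a group and bars their mean, with FLAG IPs in red and MYC IPs in blue. The 6 FLAG libraries of vha-7 sit between 261 and 339 CPM, above its 6 MYC libraries at 36.7 to 102 CPM, while the CEY1 FLAG libraries of the c-ring genes vha-1 to vha-4 sit between 10.2 and 25.5 CPM.

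The 4 a-subunit mRNAs spread more widely than the c ring. vha-7 was higher in the FLAG IP of every strain under either scaling. unc-32 was higher with CEY2 and CEY4 and lower with CEY1, but lower in all 3 strains with total-count scaling. vha-5 and vha-6 were lower with CEY2, and vha-5 also with CEY1, which total-count scaling could not turn. In CEY4 they had log2 fold changes of 0.39 ± 0.08 (vha-5) and 0.31 ± 0.06 (vha-6), but −1.02 and −1.11 with total-count scaling. The median of the 4 was −0.24 in CEY1, 0.50 in CEY2 and 0.51 in CEY4, and −1.73, −1.23 and −0.91 with total-count scaling.

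vha-7 mRNA was found at 339 and 329 CPM in CEY1 FLAG libraries, against 102 and 93.6 CPM in CEY1 MYC libraries (1.78 ± 0.07, and 0.29 with total-count scaling). The CEY2 FLAG libraries held 261 and 293 CPM, against 44.4 and 36.7 CPM in CEY2 MYC libraries (2.77 ± 0.08, and 1.04 with total-count scaling). The CEY4 FLAG libraries held 301 and 305 CPM, against 90.7 and 88.0 CPM in CEY4 MYC libraries (1.76 ± 0.07, and 0.35 with total-count scaling). With TMM scaling the FLAG libraries were all far above the MYC libraries. By total counts they did not overlap either, but the gap was small, with 167 CPM as the lowest FLAG value (CEY2) and 155 CPM as the highest MYC value (CEY1). The 6.82-fold value of CEY2, against 3.43-fold in CEY1 and 3.40-fold in CEY4, goes with a control at 40.5 ± 5.43 CPM, against 97.7 ± 5.79 CPM in the CEY1 and 89.3 ± 1.90 CPM in the CEY4 control (SD, n = 2 each). vha-7 had a larger log2 fold change than 88.2% of the tested genes in CEY1, 96.2% in CEY2 and 92.4% in CEY4.

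unc-32, the a-subunit gene whose mutants move in an uncoordinated way, stood at 53.1 and 57.2 CPM in CEY1 FLAG libraries, against 84.1 and 88.2 CPM in CEY1 MYC libraries (−0.65 ± 0.08). It stood at 159 and 158 CPM in CEY2 FLAG libraries, against 53.1 and 49.6 CPM in CEY2 MYC libraries (1.62 ± 0.08, but −0.11 with total-count scaling). It stood at 132 and 132 CPM in CEY4 FLAG libraries, against 85.8 and 86.1 CPM in CEY4 MYC libraries (0.62 ± 0.07, but −0.80 with total-count scaling). The FLAG groups thus ordered as CEY2, CEY4 and CEY1 without overlap, and only the CEY1 and CEY4 controls overlapped. Its rank moved in step: 41.5% of tested genes had a smaller log2 fold change in CEY1, 80.7% in CEY2 and 73.3% in CEY4. The annotation lists 6 transcripts of unc-32 and 3 of vha-7, and counts per gene do not separate them. The 7 neuron markers summed to 210 to 220 CPM in CEY1 FLAG, against 89.7 to 95.0 CPM in CEY1 MYC libraries, to 110.1 to 110.7 CPM in CEY2 FLAG, against 112.3 to 118.6 CPM in CEY2 MYC libraries, and to 201 to 208 CPM in CEY4 FLAG, against 86.7 to 89.3 CPM in CEY4 MYC libraries. One of them, unc-119, is also carried by the transgene. Of the 7 neuron markers 3 were called higher and 1 lower in CEY1, 1 and 3 in CEY2, and 3 and 3 in CEY4, with median log2 fold changes of 0.60, −0.47 and 0.13. For the 7 germline and oocyte markers the sums were 31068 to 32409 CPM in CEY1 FLAG and 6307 to 6976 CPM in CEY1 MYC libraries, 51523 to 53068 CPM in CEY2 FLAG and 4816 to 4890 CPM in CEY2 MYC libraries, and 32548 to 32847 CPM in CEY4 FLAG and 7020 to 7063 CPM in CEY4 MYC libraries. Of these 7 genes 7 were called higher in CEY1, 7 in CEY2 and 6 in CEY4, and 0 lower. Over all tested genes 32.3% were called higher and 34.4% lower in CEY1, 34.9% and 34.1% in CEY2, and 31.5% and 37.0% in CEY4. The part of these cell types in the unc-32 and vha-7 values was not tested.

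vha-6, the intestinal a subunit, stood at 278 and 266 CPM in CEY1 FLAG libraries, against 235 and 246 CPM in CEY1 MYC libraries (0.18 ± 0.06, 0.057 with only the CEY1 libraries in the fit, but −1.32 with total-count scaling). In CEY2 the FLAG libraries held 108 and 118 CPM and the MYC libraries 166 and 181 CPM (−0.62 ± 0.07, and −0.96 with RLE size factors). In CEY4 the FLAG libraries held 253 and 255 CPM and the MYC libraries 212 and 199 CPM. The CEY2 FLAG libraries were the lowest of all 12, and the 6 groups did not overlap. The summed level of the 7 intestine markers was, among FLAG groups, lowest with CEY2, at 23975 to 24816 CPM, against 14376 to 14382 CPM in CEY2 MYC libraries. CEY1 had 70880 to 74922 CPM in FLAG and 15609 to 15652 CPM in MYC libraries, and CEY4 101278 to 104079 CPM in FLAG and 16470 to 17230 CPM in MYC libraries. The intestine list as a whole had 4 genes called higher and 2 lower of 7 in CEY1, 2 and 5 in CEY2, and 3 and 2 in CEY4. These calls stand beside the shares of all genes given above with the germline markers. The median log2 fold changes of the list were 1.48, −1.08 and 0.14, so in CEY2 its median was below 0 though its sum was higher in FLAG. The part of the intestine list in the vha-6 values was not tested.

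vha-5, the a subunit of canal and epidermis, had 39.2 and 37.7 CPM in CEY1 FLAG libraries, against 61.0 and 73.9 CPM in CEY1 MYC libraries (−0.82 ± 0.09). It had 27.5 and 27.6 CPM in CEY2 FLAG libraries, against 60.6 and 71.1 CPM in CEY2 MYC libraries (−1.25 ± 0.10), and 80.4 and 82.1 CPM in CEY4 FLAG libraries, against 63.4 and 60.3 CPM in CEY4 MYC libraries. With TMM scaling the 3 controls overlapped, with CEY4 FLAG above and CEY1 and CEY2 FLAG below all of them. By total counts vha-5 instead had 45.9 and 46.5 CPM in CEY4 FLAG libraries, below every control, and the CEY2 controls (128 and 151 CPM) stood above those of CEY4 (95.4 and 91.9 CPM). Of the 7 excretory canal markers 2 were called higher and 3 lower in CEY1, 3 and 3 in CEY2, and 4 and 2 in CEY4. Their median log2 fold changes were −0.53, −0.19 and 0.18. Their sums were 516 to 541 CPM in CEY1 FLAG and 295 to 296 CPM in CEY1 MYC libraries, 395 to 398 CPM in CEY2 FLAG and 217 to 238 CPM in CEY2 MYC libraries, and 321 to 329 CPM in CEY4 FLAG and 272 to 286 CPM in CEY4 MYC libraries. The 7 hypodermis markers summed to 4103 to 4499 CPM in CEY1 FLAG and 1018 to 1056 CPM in CEY1 MYC libraries, 794 to 813 CPM in CEY2 FLAG and 762 to 787 CPM in CEY2 MYC libraries, and 1186 to 1208 CPM in CEY4 FLAG and 930 to 1020 CPM in CEY4 MYC libraries. Of these 7 genes 5 were called higher and 2 lower in CEY1, 2 and 4 in CEY2, and 3 and 2 in CEY4, with median log2 fold changes of 1.93, −0.90 and −0.16. Calls of both lists stand beside the shares of all genes given above with the germline markers. The part of both lists in the vha-5 values was not tested.

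**Figure D2:**
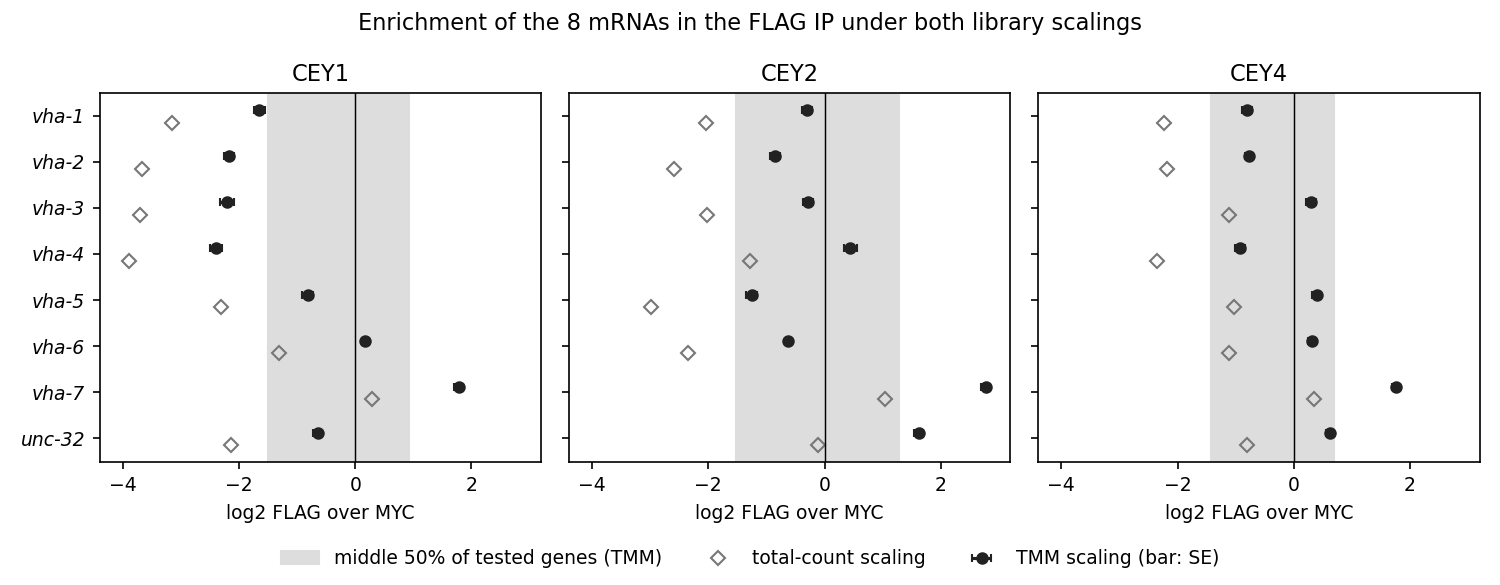
Log2 fold change of FLAG over MYC for the 8 mRNAs in each strain, with TMM scaling (filled circles, bars are the SE) and with total-count scaling (open diamonds); the grey band is the middle 50% of all tested genes with TMM scaling. vha-7 lies right of 0 in all 3 strains under either scaling, from 1.76 to 2.77 with TMM and from 0.29 to 1.04 with total counts, and the c-ring genes lie left of the band in CEY1 with TMM scaling.

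edgeR's quasi-likelihood test called all 8 genes in each FLAG over MYC comparison, where it called 66.7% of all tested genes in CEY1, 69.0% in CEY2 and 68.5% in CEY4. The libraries of the 2 antibodies did not overlap for any of the 8 in any strain, as for 81.2% of tested genes in CEY1, 83.3% in CEY2 and 83.7% in CEY4. Because the genes were chosen with these comparisons known, nothing is read from the counts. Between strains, edgeR called the difference in enrichment for 8 of the 8 in CEY1 minus CEY2 (49.9% of all genes), 6 in CEY1 minus CEY4 (36.8%) and 7 in CEY2 minus CEY4 (47.0%), and nothing is read from these either. In CEY1, 2 of the 8 were higher and 6 lower, in CEY2 3 and 5, and in CEY4 5 and 3. With total-count scaling 1 of the 8, vha-7, was higher in each strain and 7 were lower.

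With TMM scaling the differences between strains were largest for vha-4, vha-3 and unc-32 among the 8. With RLE size factors vha-5 for CEY2 minus CEY4 (−1.98) was larger in size than unc-32 for CEY1 minus CEY2 (−1.93). The log2 enrichment of vha-4 in CEY1 minus that in CEY2 was −2.84 ± 0.15 (−2.60 with total-count scaling). For unc-32 the same difference was −2.27 ± 0.11 (−2.03), and for vha-3 that of CEY1 minus CEY4 was −2.51 ± 0.15 (−2.59). All 4 c-ring genes were less enriched in CEY1 than in CEY2, from −1.32 ± 0.12 (vha-2) to the value of vha-4, and less than in CEY4, from −0.84 ± 0.13 (vha-1) to the value of vha-3. vha-6 and vha-5 differed the other way from CEY2 (0.80 ± 0.09 and 0.43 ± 0.13 for CEY1 minus CEY2). For CEY1 minus CEY4 vha-6 differed by −0.13 ± 0.09 and vha-5 by −1.21 ± 0.12. vha-7 had nearly the same enrichment in CEY1 and CEY4, with a difference of 0.014 ± 0.10 (−0.062 with total-count scaling). CEY2 minus CEY4 gave its extremes in vha-5 (−1.65 ± 0.13) and vha-4 (1.37 ± 0.14). Each strain's libraries enter 2 of these differences, so they are not independent.

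Ratios of paralogs within a library carry no scaling. Among the a subunits, the balance of vha-6 and vha-7 was lower in every FLAG library than in every MYC library. The log2 ratio of vha-6 over vha-7 was −0.29 and −0.31 in CEY1 FLAG, against 1.21 and 1.39 in CEY1 MYC libraries. It was −1.28 and −1.32 in CEY2 FLAG, against 1.91 and 2.30 in CEY2 MYC libraries, and −0.25 and −0.26 in CEY4 FLAG, against 1.22 and 1.18 in CEY4 MYC libraries. The mean ratio of FLAG minus that of MYC was −1.60 in CEY1, −3.40 in CEY2 and −1.46 in CEY4.

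The balance of vha-6 and unc-32 went in opposite directions between strains. Its log2 ratio was 2.39 and 2.21 in CEY1 FLAG, against 1.48 and 1.48 in CEY1 MYC libraries, a difference of 0.82 between the means. In CEY2 it was −0.56 and −0.42 in FLAG and 1.65 and 1.86 in MYC libraries (−2.25), and in CEY4 0.94 and 0.95 in FLAG and 1.30 and 1.21 in MYC libraries (−0.31). The groups did not overlap in any strain. For vha-5 over vha-6 the mean difference of FLAG minus MYC was −0.98 in CEY1, −0.63 in CEY2 and 0.088 in CEY4.

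Within the c ring, the operon partners vha-1 and vha-2 did not keep one ratio. The log2 ratio of vha-1 over vha-2 was −0.20 and −0.19 in CEY1 FLAG, against −0.76 and −0.68 in CEY1 MYC libraries, and 0.29 and 0.42 in CEY2 FLAG, against −0.083 and −0.30 in CEY2 MYC libraries. In CEY4 it was −0.66 and −0.66 in FLAG and −0.62 and −0.61 in MYC libraries. FLAG and MYC thus differed by 0.53 and 0.55 in CEY1 and CEY2, and by −0.044 in CEY4. vha-3 over its upstream neighbour vha-11, which encodes the V1 subunit C, differed by −1.69 in CEY1, 0.20 in CEY2 and 1.00 in CEY4.

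For the pair that encodes one protein, the log2 ratio of vha-2 over vha-3 was 1.32 and 1.05 in CEY1 FLAG, overlapping the 1.17 and 1.15 of CEY1 MYC libraries. It was 0.092 and −0.021 in CEY4 FLAG, against 1.07 and 1.13 in CEY4 MYC libraries, a difference of −1.07 between the means. In CEY2 it was −1.005 and −0.921 in FLAG and −0.55 and −0.23 in MYC libraries. The 4 CEY2 libraries thus had the lowest ratios of the 12, and the CEY4 FLAG libraries lay between them and the rest. In the MYC IPs vha-3 differed by 0.90 for CEY2 over CEY4 (1.38 with total-count scaling), so part of this lay in the controls. The ratio of vha-2 over vha-4 in CEY2 was −0.070 and −0.22 in FLAG and 1.26 and 1.04 in MYC libraries.

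**Figure D3:**
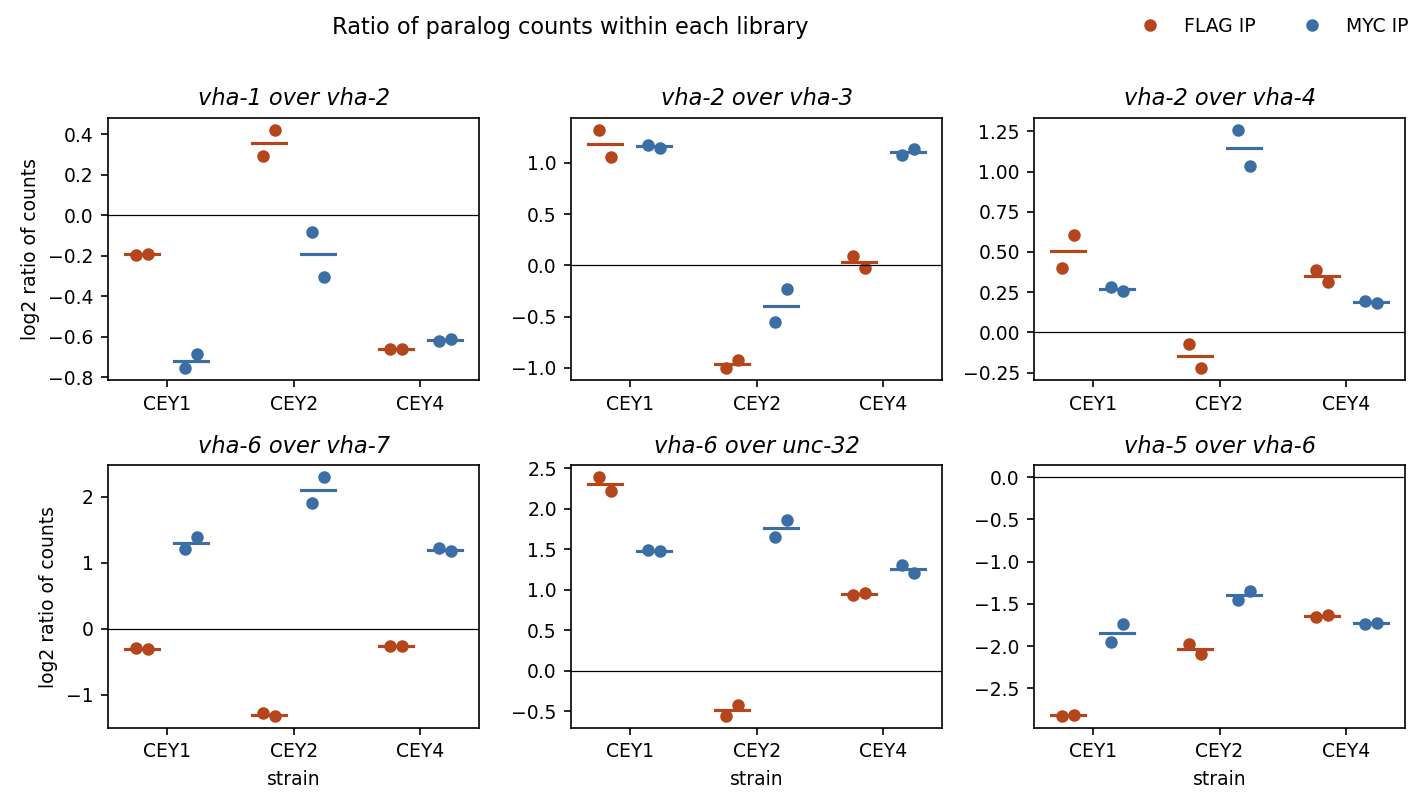
Log2 ratio of the counts of 2 paralogs in each library, by strain, for FLAG IPs (red) and MYC IPs (blue); bars are the mean of 2 libraries and each panel has its own axis. vha-6 over vha-7 is lower in all 6 FLAG libraries than in all 6 MYC libraries, while vha-6 over unc-32 moves up in CEY1 FLAG (0.82) and down in CEY2 FLAG (−2.25).

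The other subunits of the pump were taken from a list of 14 drawn from textbook knowledge, of which 13 were tested and spe-5 was not analysed here. Results of these data were known by then, so their p-values and calls are a description as well. In CEY1, 8 rose and 4 fell of 13 by edgeR's test, where 32.3% of all genes were called higher and 34.4% lower. Their median log2 fold change was 1.01, and −0.48 with total-count scaling, which called 2 higher and 9 lower. vha-14 (V1 subunit D, in the central stalk) rose by 2.22 ± 0.07 (adjusted p = 4.13e-29), with 419 and 412 CPM in FLAG and 94.5 and 84.8 CPM in MYC libraries. vha-13 (the catalytic V1 subunit A) rose by 1.66 ± 0.06 (adjusted p = 1.10e-26), and both stayed positive with total-count scaling (0.73 and 0.17). vha-16 (V0 subunit d) had 1.34 ± 0.08 and vha-15 (V1 subunit H) 1.33 ± 0.08, but −0.15 and −0.16 with total-count scaling. The other gene of subunit H, vha-18, had 1.25 ± 0.08, and the accessory subunits vha-19 and vha-20 had 1.07 ± 0.07 and 1.01 ± 0.07 (−0.24, −0.42 and −0.48 with total-count scaling). vha-17 (V0 subunit e) had 0.47 ± 0.11, against −1.02 when scaled by total counts and 0.30 when CEY1 MYC replicate 2 was dropped. The genes that fell encode V1 stalk subunits, vha-10 (subunit G, −1.11 ± 0.11), vha-8 (E, −0.75 ± 0.07), vha-9 (F, −0.67 ± 0.10) and vha-11 (C, −0.51 ± 0.08). The ATP-binding subunit B gene vha-12 had −0.041 ± 0.07 (adjusted p = 0.616). No listed subunit was as low in CEY1 as the 4 c-ring genes.

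With CEY2, 5 of the 13 rose and 4 fell, where 34.9% of all genes were called higher and 34.1% lower, or 1 and 12 with total-count scaling and 4 and 7 with RLE size factors. Their median was −0.0097, and −1.74 with total-count scaling. vha-18 rose by 2.59 ± 0.08 (adjusted p = 5.99e-28), with 196 and 190 CPM in FLAG and 34.5 and 29.4 CPM in MYC libraries, and stayed positive with total-count scaling (0.86). vha-9 followed at 1.22 ± 0.10, and vha-19, vha-13 and vha-14 had 0.67 ± 0.08, 0.62 ± 0.06 and 0.47 ± 0.07, all negative with total-count scaling, and vha-14 was not called with RLE size factors (0.13, adjusted p = 0.0855). The genes vha-11 (−0.49 ± 0.08), vha-20 (−0.45 ± 0.07), vha-8 (−0.34 ± 0.07) and vha-12 (−0.33 ± 0.07) fell. Without CEY2 MYC replicate 1 vha-11 had −0.32 and vha-12 −0.20. Values of vha-10, vha-15, vha-16 and vha-17 lay between −0.13 and 0.22 and were not called. With RLE size factors vha-10 (−0.35), vha-15 (−0.43) and vha-16 (−0.47) were called lower, as they were with only the CEY2 libraries in the fit (−0.17, −0.25 and −0.28). vha-17 was called higher with no filter (0.31), without CEY2 FLAG replicate 2 (0.33) and without CEY1 MYC replicate 1 or 2 (both 0.25).

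With CEY4, 6 of the 13 rose and 4 fell, where 31.5% of all genes were called higher and 37.0% lower, or 0 and 11 with total-count scaling. Their median was 0.17, and −1.24 with total-count scaling. The highest was vha-15 (1.46 ± 0.07, adjusted p = 5.55e-21), at 186 and 187 CPM in FLAG and 75.6 and 59.5 CPM in MYC libraries, and it was not called with total-count scaling (0.048). vha-20 (1.38 ± 0.06), vha-18 (1.06 ± 0.07), vha-14 (0.92 ± 0.06), vha-19 (0.79 ± 0.07) and vha-13 (0.55 ± 0.06) came next and were negative with total-count scaling. vha-11 (−0.70 ± 0.07), vha-16 (−0.60 ± 0.08), vha-17 (−0.46 ± 0.10) and vha-9 (−0.42 ± 0.09) fell. The remaining genes vha-8, vha-10 and vha-12 had values between 0.015 and 0.17 and were not called, though vha-10 was called higher without CEY1 MYC replicate 1 (0.19) or 2 (0.19), with no filter (0.22) and with only the CEY4 libraries in the fit (0.15).

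**Figure D4:**
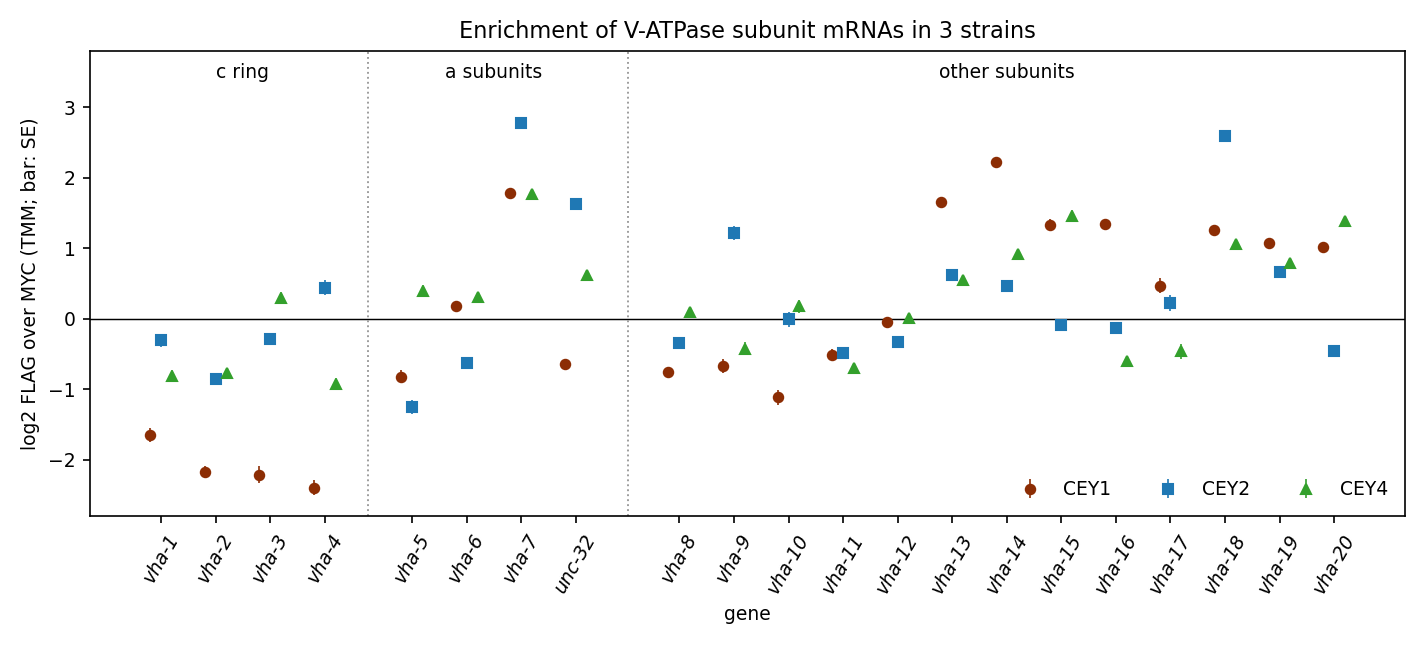
Log2 fold change of FLAG over MYC (TMM scaling, bars are the SE) for the c-ring genes, the a-subunit genes and the 13 other V-ATPase subunit genes in CEY1 (circles), CEY2 (squares) and CEY4 (triangles). The 4 c-ring genes are lowest in CEY1, from −2.39 to −1.65, while vha-13 to vha-20 lie above 0 in CEY1 (only vha-13 and vha-14 of these with total-count scaling).

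By the interaction contrast of edgeR, 7 of the 13 other subunits were more and 4 less enriched with CEY1 than with CEY2, where 18.4% and 31.4% of all genes were called in these directions, or 8 and 3 with total-count scaling and 9 and 3 with RLE size factors. For CEY1 minus CEY4 the counts were 5 and 3 (18.1% and 18.6% of all genes), or 4 and 4 with total-count scaling. For CEY2 minus CEY4 they were 4 and 5 (32.3% and 14.7% of all genes), or 3 and 8 with total-count scaling and 2 and 8 with RLE size factors. The pair of subunit H genes differed between CEY2 and the other strains. For CEY1 minus CEY2 vha-15 had 1.42 ± 0.11 and vha-18 −1.34 ± 0.12. For CEY2 minus CEY4 vha-15 had −1.55 ± 0.11 and vha-18 1.53 ± 0.11, and both comparisons share the CEY2 libraries. For CEY1 minus CEY4 neither gene was called, with −0.13 ± 0.11 for vha-15 and 0.19 ± 0.11 for vha-18.

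The control IPs differed between strains as well. In MYC libraries CEY1 over CEY2 gave 7 other subunits higher and 1 lower of 13 (39.7% and 14.8% of all genes), but 3 and 8 with total-count scaling and 3 and 5 with RLE size factors. CEY2 over CEY4 gave 2 and 5 (15.4% and 42.4% of all genes), but 8 and 2 with total-count scaling or RLE size factors. CEY1 over CEY4 gave 5 and 0 (6.19% and 8.35% of all genes), but 8 and 0 with total-count scaling. With only the CEY1 and CEY4 controls in the fit it gave 0 and 0. Of the 8 paralogs, edgeR called 7 for CEY1 over CEY2 (54.5% of all genes), 2 for CEY1 over CEY4 (14.5%) and 6 for CEY2 over CEY4 (57.8%), again with nothing read from it. The control libraries did not overlap for 7, 6 and 7 of the 8, as for 73.4%, 49.2% and 75.2% of all genes. Among them, vha-4, vha-7, unc-32 and vha-2 were lower in the CEY2 control than in both other controls, under either scaling. vha-3 was higher there than in both, which total-count scaling, as it raised the CEY2 control, could not turn. For vha-1 and vha-6 the sign of CEY2 over CEY4 turned from −0.17 and −0.24 with TMM to 0.31 and 0.24 with total-count scaling.

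The likeness of 2 genes was measured as the root mean square difference of their log2 CPM over the 12 libraries after each gene was centred on its mean. Among the 8, the closest were vha-1 and vha-2 (0.38), vha-2 and vha-4 (0.40), and vha-5 and vha-6 (0.45). vha-7 lay farthest from the others, from 0.97 (unc-32) to 1.79 (vha-3). Of 6207 genes with a symbol and a mean of at least 10 CPM outside the pump, unc-32 was most like pfkb-1.2, a phosphofructokinase-2 homolog (0.046), and the replication factor C gene rfc-4 (0.090). vha-7 was most like the DnaJ gene dnj-1 and farl-11 (both 0.11), vha-6 like Y15E3A.4 (0.072) and the Rh-related ammonium transporter gene rhr-1 (0.13), and vha-5 like Y47G6A.19 (0.14) and zip-12 (0.20). In the c ring, vha-4 was most like the ribosome assembly gene pno-1 (0.090) and the F-box gene fbxa-101 (0.19), and vha-1 like the ubiquitin-like ned-8 (0.13) and Y61A9LA.3 (0.14). vha-2 was most like the histone gene his-3 (0.12), whose reads may be shared with near-identical copies, and the complex I gene ndub-10 (0.15). vha-3 had no such close match, with Y53F4B.39 at 0.21 and the acyl-CoA dehydrogenase gene acdh-7 at 0.32.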

How the data were processed

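The authors deposited a table of raw counts per gene and a table of log2 values for 12 libraries. The deposited log2 values were checked to be the counts scaled to one common library total, with 8 added, and were not used further. Per the labels, RNA was taken from beads with Trizol and libraries were made with the ScriptSeq v2 kit; neither the aligner nor the build nor the counting tool is named there. Symbols were matched by identifier for 18778 of 20182 genes. Neighbouring genes and transcript numbers come from RefSeq's WBcel235 table.

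edgeR 4.0.16 under R 4.3.3 was run on the counts: filterByExpr (minimum count 10), TMM, 6 group means over 12 libraries, and quasi-likelihood F tests, two-sided, adjusted over the 15194 genes tested. The common biological coefficient of variation was 0.0476. The procedure was also run on simulated counts that had the same profile in all groups, apart from some genes changed in CEY1 FLAG libraries. That setting lacked the wide FLAG and MYC differences of these data, so it says nothing on the choice of scaling. Within groups, replicates differed by more than sampling noise (chi-square per gene from 1.47 to 4.05). Statements on depth cover counting error only.

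The members and lists were chosen with earlier results of these data known. The list of other subunits was drawn from textbook knowledge, yet its p-values are a description for the same reason. Named genes were the 8 paralogs, 13 other subunits, and the 2 closest genes to each paralog. Alternatives were total-count and RLE scaling, no filter, DESeq2 1.42.0, only the groups compared, a replicate block, each library left out, and for ratios 0.5 added counts.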

Additional observations from a re-analysis of the deposited data

Results flagged for a closer look

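Chosen as they were, the 8 paralogs are listed where every FLAG library lay on one side of its controls in one strain and on the opposite side in another; the difference is given without a test, since the genes were chosen with it known, and the opposite signs depend on TMM scaling, since with total-count scaling all 5 genes were negative in each strain. The differences of log2 enrichment were −2.84 (vha-4), 0.80 (vha-6) and −2.27 (unc-32) for CEY1 minus CEY2. For CEY1 minus CEY4 they were −2.51 (vha-3), −1.21 (vha-5) and −1.27 (unc-32). For CEY2 minus CEY4 they were −0.58 (vha-3), 1.37 (vha-4), −1.65 (vha-5) and −0.93 (vha-6).

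For other subunits the difference itself was called by edgeR's interaction contrast. For CEY1 minus CEY2 it was −0.41 (vha-8), −1.88 (vha-9), −1.10 (vha-10), 0.29 (vha-12), 1.04 (vha-13), 1.75 (vha-14), 1.42 (vha-15), 1.47 (vha-16), −1.34 (vha-18), 0.40 (vha-19) and 1.47 (vha-20), with adjusted p up to 0.0130. For CEY1 minus CEY4 it was −0.84 (vha-8), −1.29 (vha-10), 1.11 (vha-13), 1.30 (vha-14), 1.95 (vha-16), 0.93 (vha-17), 0.28 (vha-19) and −0.37 (vha-20), with adjusted p up to 0.0197. For CEY2 minus CEY4 it was −0.43 (vha-8), 1.64 (vha-9), −0.34 (vha-12), −0.45 (vha-14), −1.55 (vha-15), 0.48 (vha-16), 0.68 (vha-17), 1.53 (vha-18) and −1.84 (vha-20), with adjusted p up to 0.00257.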

How the results depend on the processing

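Library scaling accounted for most of the values that changed sign. With total-count scaling the FLAG over MYC values that changed sign were, in CEY1, vha-6 (−1.32), vha-15 (−0.16), vha-16 (−0.15), vha-17 (−1.02), vha-18 (−0.24), vha-19 (−0.42) and vha-20 (−0.48). In CEY2 they were vha-4 (−1.29), unc-32 (−0.11), vha-9 (−0.51), vha-13 (−1.11), vha-14 (−1.26), vha-17 (−1.51) and vha-19 (−1.06). In CEY4 they were vha-3 (−1.12), vha-5 (−1.02), vha-6 (−1.11), unc-32 (−0.80), vha-8 (−1.32), vha-10 (−1.24), vha-12 (−1.40), vha-13 (−0.86), vha-14 (−0.50), vha-18 (−0.35), vha-19 (−0.62) and vha-20 (−0.032). The vha-7 difference of CEY1 minus CEY4 changed to −0.062, and to −0.00063 with no filter, from 0.014. Other values that changed sign were small: vha-17 in CEY2 with RLE size factors or DESeq2 (both −0.12), vha-10 in CEY2 with no filter (0.076), and vha-12 in CEY4 with only the groups compared (−0.0095).

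Over all genes, total-count scaling called 1647 higher and 10849 lower in CEY1, 2013 and 10892 in CEY2, and 1405 and 12112 in CEY4, against 4910 and 5223, 5300 and 5177, and 4788 and 5625 with TMM. The comparison of CEY1 with CEY4 controls was the least stable: 2208 genes were called, 1409 with DESeq2 and 1082 with only the groups compared, and of the other subunits 5, against 8 with total-count scaling and 0 with only the groups compared. Leaving out each library in turn gave from 1467 to 2368 genes and from 1 to 6 of these subunits; 1467 was without CEY1 MYC replicate 2.

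Leaving out one library changed the sign of vha-10 in CEY2 (−0.089 to 0.094), vha-12 in CEY1 (−0.13 to 0.066) and in CEY4 (−0.0097 to 0.061), and the vha-7 difference of CEY1 minus CEY4 (−0.052 to 0.060). The log2 ratios that changed sign were vha-2 over vha-3 (−0.11 to 0.16) and vha-3 over vha-4 (−0.033 to 0.44) in CEY1, and vha-1 over vha-3 in CEY2 (−0.13 to 0.086).

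Same-numbered FLAG and MYC libraries did not deviate together over the tested genes (correlations of −0.00182, −0.0263 and −0.00303 in CEY1, CEY2 and CEY4). Whether they came from one culture cannot be told from this, since noise of each single library can hide a shared part. With a replicate block the other subunits called were 12, 9 and 10 in the 3 strains, as without it, and over all genes 9911, 10342 and 10192 genes were called. Adding 0.5 counts left every ratio within its replicate spread. The shallowest library held 3353523 counts and limits small differences in CEY2.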
